A study of Mus musculus with 3 samples.

Results

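Guanylate-binding proteins (GBPs) and immunity-related GTPases (IRGs) are enzymes of innate defence that interferons switch on. This account covers 8 of their genes in the mouse spleen, namely the GBP genes Gbp2, Gbp3, Gbp6 and Gbp8 and the IRG genes Irgm1, Irgm2, Igtp (also called Irgm3) and Iigp1 (also called Irga6). They were taken as every probe set of the deposited expression table that the array's annotation assigns to one of these symbols alone, which gave 11 probe sets of 45037, for 8 of 18193 genes. The genes were chosen by their log2 levels on all 3 arrays, so the values that follow describe them and test nothing.

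Interferons, above all interferon gamma, induce both families, in part through the transcription factor IRF1. GBPs coat the vacuoles and surfaces of intracellular microbes such as Toxoplasma and some bacteria, where they help to break the membrane and to bring microbial molecules to cytosolic sensors. Among the IRGs, Iigp1 is an effector that loads onto pathogen vacuoles, whereas Irgm1, Irgm2 and Igtp are regulators that sit on the cell's own membranes and keep the effectors off them. Red pulp macrophages, the cells that clear aged red blood cells from the spleen, depend on the transcription factor Spic.

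RNA was measured on 3 Affymetrix arrays, 1 per sorted population, all from adult mice of genotype Spic(igfp/+), in which one Spic allele carries a green fluorescent protein reporter. The populations were Spic-negative monocytes (CD11b+ Ly6C+ without reporter), Spic-positive monocytes (CD11b+ Ly6C+ with reporter) and red pulp macrophages (high for F4/80 and for the reporter). The monocytes were first depleted of cells bearing CD4, CD8 or B220, while the sources conflict on whether the macrophages were too. No treatment is given for any group, and the number of mice behind an array is not stated in the sources used here. With 1 array per population there is no spread between replicates and no test, and the number of arrays limits the precision. Values are log2 expression in the order Spic-negative monocytes, Spic-positive monocytes, red pulp macrophages. A level at or under log2 5.02, the median of all probe sets, is called near background. In these bulk samples, more cells that express a gene and more RNA per cell cannot be told apart.

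Of the sort genes, Spic measured 5.66, 9.22 and 12.23 and Adgre1 (F4/80) 10.77, 10.67 and 12.50, which followed the labels. Itgam (CD11b) measured 8.68, 7.38 and 5.23. Its difference of -1.30 between the monocyte arrays is not given by the labels, as both gates were CD11b+. Ly6C could not be read, since its genes had no probe set of their own here. The arrays also differed in ways that the sort does not name. Each of 18 hybridization controls, spiked into every sample alike, gave a higher signal in Spic-positive than Spic-negative monocytes (median difference log2 2.16), against a median of 0.07 for macrophages and Spic-negative monocytes. Xist measured 4.63, 4.70 and 11.95 and the Y-linked gene Eif2s3y 10.10, 9.56 and 3.31, which sets the macrophage array apart from both monocyte arrays. Ifi202b, a gene known to differ between inbred strains and chosen after its values were seen, measured 9.35, 8.98 and 3.28. The part of sex, strain and array in the results below was not tested.

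Promoter sequences are shown because interferon reaches these genes through short elements near the start. They come from the RefSeq table of 300-base promoter windows (250 bases before to 50 after the start, build GRCm38.p6), which was searched for 5 of the 8 genes. Capitals mark GAAA followed after 2 bases of any kind by GAAA, a core of the interferon-stimulated response element bound by IRF factors, and TTCNNNGAA, the core of the gamma-activated sequence, an element named for its response to interferon gamma. Both strands were searched. On the opposite strand the first motif reads TTTC, 2 bases and TTTC, while the other reads alike on both. Each stretch below is written 5′ to 3′ on the gene's strand and holds the matches with 25 bases on either side.
Igtp, chr11:58199486-58199556 on the plus strand: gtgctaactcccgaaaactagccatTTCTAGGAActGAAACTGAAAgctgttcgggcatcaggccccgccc
Irgm2, chr11:58214877-58214947 on the plus strand: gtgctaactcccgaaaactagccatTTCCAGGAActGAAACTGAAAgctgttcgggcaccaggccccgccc
Irgm1, chr11:48871410-48871475 on the minus strand: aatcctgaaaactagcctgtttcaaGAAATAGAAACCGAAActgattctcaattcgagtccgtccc
Gbp2, chr3:142620579-142620638 on the plus strand: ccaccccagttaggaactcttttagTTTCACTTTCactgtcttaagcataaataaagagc
Gbp3, chr3:142559974-142560039 on the plus strand: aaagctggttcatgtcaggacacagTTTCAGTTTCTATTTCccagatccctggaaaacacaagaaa

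All 5 genes held the response element core, which 3.44% of the 32851 promoters in the table hold. In Irgm1 and in Gbp3 it occurred in 2 overlapping copies, an arrangement of more than 1 match that 0.225% of promoters hold. Igtp and Irgm2, which are neighbours on chromosome 11, also held the gamma-activated core, found in 8.30% of promoters, and 0.454% of promoters hold both. In these neighbours the motifs were 2 bases apart, and 69 of 71 bases of the windows shown were identical. The matches lay 34 to 25 bases before the start in Igtp, 64 to 55 in Irgm2, 59 to 50 in Gbp2, and within the 45 bases before it in Irgm1 and Gbp3. A second Gbp3 start in the table held no match. A match is a stretch of letters and not a measured binding site.

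**Figure D1:**
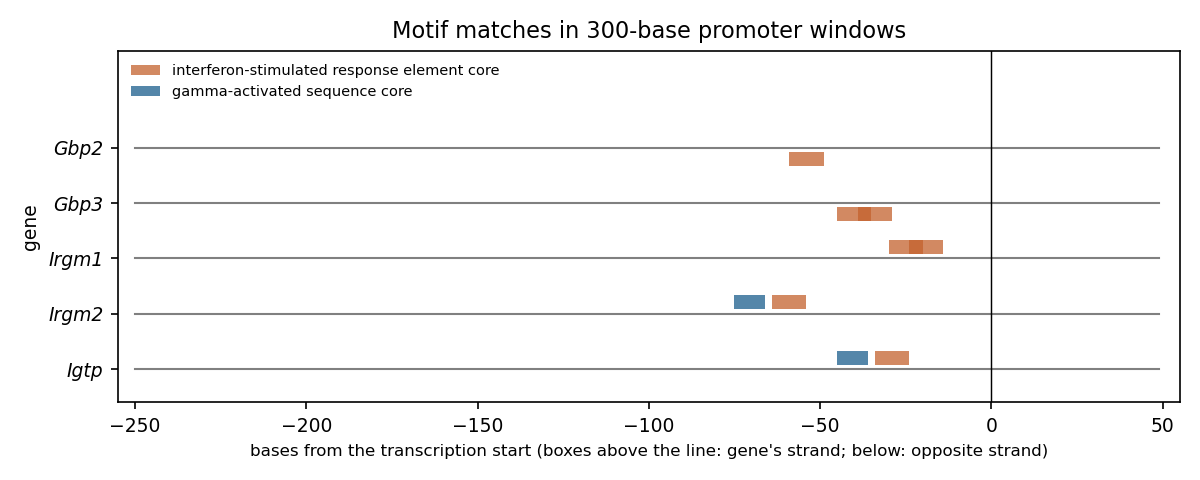
Position of motif matches in the 300-base promoter windows of 5 GTPase genes, in bases from the transcription start (vertical line at 0). Each horizontal line is 1 window, boxes above it are matches on the gene's strand and boxes below it on the opposite strand. All 5 genes have a response element match close before the start, and Igtp and Irgm2 have a gamma-activated match beside it.

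Across the 3 populations the genes fell into different patterns. Gbp8, Gbp6 and Iigp1 were near background or just above it in Spic-negative monocytes, higher in Spic-positive monocytes and higher again in macrophages. Gbp2 was higher in both Spic-expressing populations and about level between them. Gbp3 and the regulators Irgm1, Irgm2 and Igtp were well above background on all 3 arrays and differed less.

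Gbp8 had the widest differences of the 8 genes. It measured 4.56, 8.69 and 11.20 on its 1 probe set, near background in Spic-negative monocytes and clearly above it in the others. The difference between the monocyte arrays was log2 4.13, a 17.5-fold step on the deposited values, and macrophages were higher than Spic-negative monocytes by 6.64. Because the lower level is background, setting it to the floor of 5.02 gives differences of 3.66 and 6.18, of which the first ranked 7 from the top among 12375 genes treated alike. A further probe set that the annotation shares between Gbp8 and Gbp4 stayed at 5.004, 5.67 and 4.999, so it did not show the pattern.

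Gbp6, which lies with Gbp8, Gbp4, Gbp9 and Gbp10 in the GBP cluster of chromosome 5, followed the same order on both of its probe sets. The brighter one measured 4.93, 6.78 and 7.97 and the other 4.22, 6.57 and 8.30. Spic-negative monocytes were near background on both, and the other arrays were above it. The differences between the monocyte arrays were 1.85 and 2.35, and macrophages exceeded Spic-negative monocytes by 3.03 and 4.08. With the Spic-negative levels set to the floor these were 1.76 and 1.55, and 2.95 and 3.28. Gbp10 is a near-identical neighbour without a probe set of its own here, so these values may hold RNA of both genes.

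Iigp1, the effector IRG on chromosome 18, measured 5.57, 8.66 and 9.65 on one probe set, the brighter, and 4.91, 7.11 and 8.79 on the second. Both placed macrophages highest and Spic-negative monocytes lowest. The Spic-positive monocytes were higher than the Spic-negative ones by 3.09 and 2.20, the first an 8.51-fold step. The Spic-negative level of the second lay near background, and set to the floor it gives 2.08. Against Spic-positive monocytes, macrophages were higher by 0.99 on the brighter probe set and by 1.68 on the other, so the 2-fold mark was met on the second alone.

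Gbp2, a GBP that restricts Toxoplasma in mice, stands in the other GBP cluster, on chromosome 3. It measured 9.47, 11.12 and 10.84 on one probe set, the brighter, and 9.15, 10.31 and 10.15 on the second. Spic-negative monocytes were lowest on both, by 1.64 and 1.15 against Spic-positive monocytes. Macrophages differed from Spic-positive monocytes by -0.28 and -0.16, a small step next to the first.

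Gbp3, its neighbour in the same cluster, measured 10.07, 10.14 and 10.82. The monocyte arrays differed by 0.07, a sign that turned to -0.004 when the arrays were centred on their medians, and macrophages were higher than Spic-negative monocytes by 0.75. None of its differences reached 2-fold.

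The regulators of the IRG system all lie on chromosome 11 and were expressed above background in every population. Irgm1 measured 9.33, 9.63 and 8.86, and was the 1 gene of the 8 whose macrophage level was the lowest of the 3, with a difference of -0.47 from Spic-negative monocytes. Irgm2 measured 7.46, 7.68 and 8.56, and its macrophage level was 1.10 above that of Spic-negative monocytes. Igtp measured 9.27, 9.64 and 10.07, which put macrophages 0.81 higher. Between the monocyte arrays all 3 regulators differed by 0.22 to 0.37, less than 2-fold. Igtp and Irgm2, which share nearly the same promoter stretch, lay 0.33 apart in their differences from Spic-negative monocytes, and Igtp and Gbp3 0.31.

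**Figure D2:**
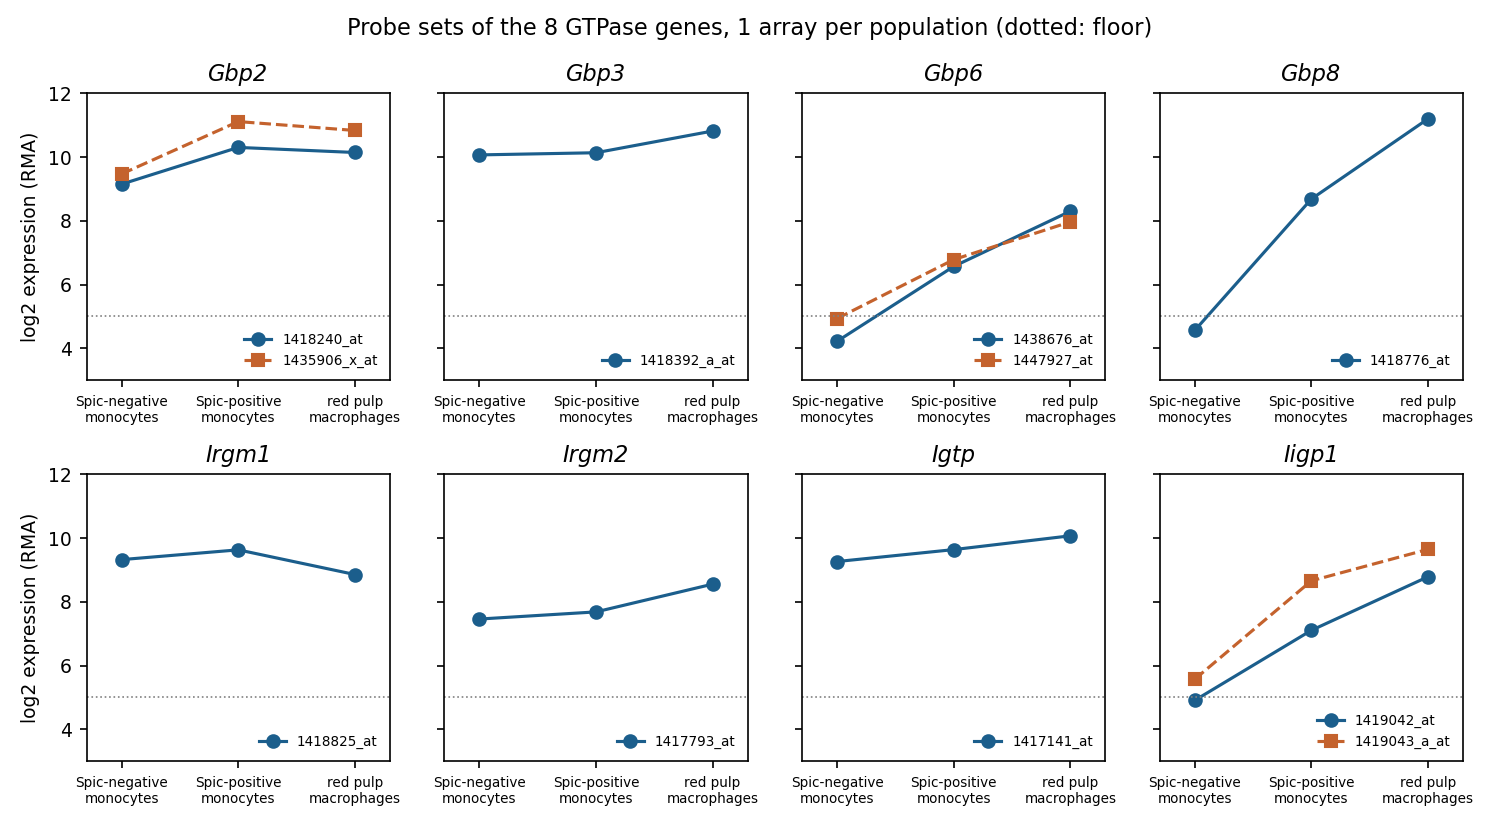
Log2 expression (vertical axis) of each probe set of the 8 genes on the 3 arrays (horizontal axis), 1 panel per gene and 1 line per probe set; the dotted line is the floor at 5.02. Gbp8, Gbp6 and Iigp1 climb from near background, Gbp2 steps up once, and Gbp3, Irgm1, Irgm2 and Igtp stay high throughout.

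Counted together, 4 of the 8 genes were past 2-fold with Spic-positive monocytes above Spic-negative ones and none was 2-fold lower, where 3.49% and 3.06% of the 12375 genes above the floor were higher and lower. The 4 were Gbp8, Iigp1, Gbp6 and Gbp2, and the median over the 8 was 1.01, against -0.06 over all genes. All 8 differences and those of all 11 probe sets were above 0 on the deposited values, with which the genes were chosen. That of Gbp3, 0.07, turned to -0.004 when the arrays were centred on their medians. The median lies at the edge between both kinds of gene and was 0.37 without Gbp6, with 3 of the other 7 genes past 2-fold.

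In macrophages against Spic-negative monocytes, 5 of the 8 were at least 2-fold higher, the same 4 and Irgm2, and none was lower, beside 19.6% of all genes higher and 11.3% lower. The median was 1.23 against 0.03 over all genes. Gbp2 passed with 1.37 on its brighter probe set and missed with 0.99 on the other, and Irgm2 came to 0.98 when quantile normalization was repeated. The arrays compared here also differ in Xist, Eif2s3y and Ifi202b, as given above, and the part of sex, strain and array was not tested.

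In macrophages against Spic-positive monocytes, 2 of the 8 were at least 2-fold higher, Gbp8 (2.52) and Gbp6 (1.18), and none was lower. After repeated quantile normalization Gbp6 came to 0.93, which left 1. The count was 3 with each gene's probe sets averaged or their median taken and after centring, where Iigp1 came to 1.34, 1.34 and 1.11. Of all genes, 22.0% were higher and 11.6% lower in this comparison, so the share of the 8 is near the background. The median was 0.78, against 0.10 over all genes. The lowest value was that of Irgm1, at -0.77. The 3 comparisons share arrays in pairs, so their values are given side by side and are not independent.

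**Figure D3:**
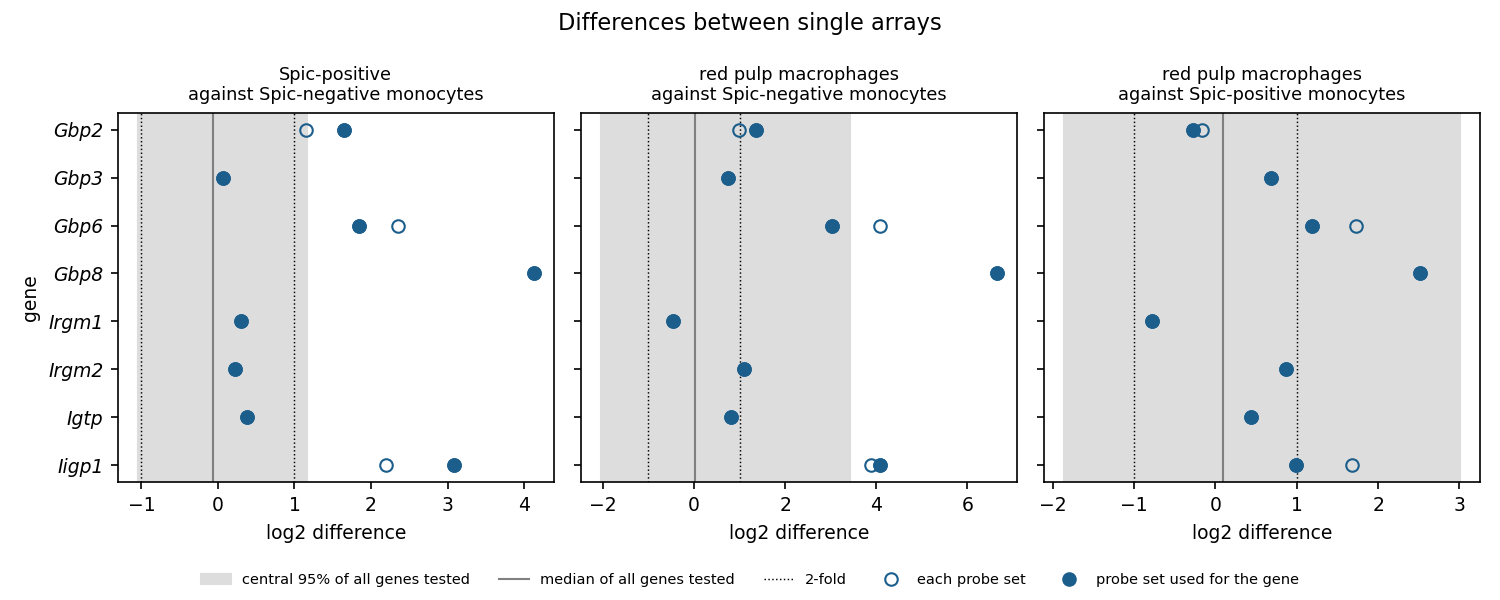
Log2 differences between single arrays (horizontal axis) for the 8 genes (vertical axis), 1 panel per comparison. Filled points are the probe set used for the gene, open points the further probe sets, the grey band the central 95% of 12375 genes, the grey line their median, and dotted lines 2-fold. The filled points of Gbp2, Gbp6, Gbp8 and Iigp1 lie beyond the band between the monocyte arrays, whereas in macrophages against Spic-positive monocytes all 8 lie inside it.

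The genes whose pattern came closest were sought by the distance between their differences of both Spic-expressing populations from Spic-negative monocytes. For Gbp8 these were Spic itself, at a distance of 0.57, and the scavenger receptor gene Marco, at 0.93 (5.24, 8.58 and 11.38). With levels under the floor set to it the order of these turned, with Marco at 0.33 and Spic at 0.41. The closest to Iigp1 were immunoglobulin light chain segments, Igkv6-14 at 0.17 and Iglv1 at 0.24. Those closest to Gbp6 were Gimap8, a GTPase gene of lymphocytes and other leukocytes, at 0.04, and Saa3, an acute phase gene, at 0.07. With the floor these lay at 1.08 and 0.087, so the likeness of Gimap8 rests on levels near background. Gbp2 was closest to Gpr31b at 0.05, also with the floor, and to Stau2 at 0.14, which the floor moved to 0.78. The steadier genes had neighbours at 0.007 to 0.016, as many genes lie near no difference, among them Hspa5 for Gbp3 and Slfn8, of the interferon-inducible Schlafen family, for Irgm1. With 3 arrays, likeness of this kind rests on 2 differences.

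Other genes of both families did not form 1 pattern either. They were 8 further genes above the floor, relatives such as the atlastin genes Atl1 and Atl3 included. Between the monocyte arrays 1 of the 8 was at least 2-fold higher and none was lower, beside 3.49% of all genes higher. The higher one was Gbp2b, the Gbp1 of older maps, at 7.35, 8.63 and 5.98. It was highest in Spic-positive monocytes and lowest in macrophages, with -2.65 between them. Gm4951, an IRG gene near Iigp1 on chromosome 18, measured 3.77, 3.90 and 8.89, so it was above background on the macrophage array alone. A probe set shared by the effector genes Tgtp1 and Tgtp2 measured 8.06, 9.62 and 10.61, in the order seen for Gbp6, Gbp8 and Iigp1.

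Gbp7 and Ifi47 were level and bright. Gbp7 measured 9.53, 9.62 and 9.35, and Ifi47 (Irgd), an IRG gene of chromosome 11, measured 10.86, 10.85 and 10.59. Irgq, a more distant relative, measured 6.69, 6.44 and 7.17. Irgc1, known as a testis gene, measured 5.84, 6.02 and 4.95, near background in macrophages. In macrophages against Spic-negative monocytes, 2 of these 8 further genes were higher past 2-fold, Gm4951 and Atl1, and 1 was lower, Gbp2b. Of all genes, 19.6% were higher and 11.3% lower there. Atl1 measured 3.79, 3.15 and 5.34, near background on both monocyte arrays and just above it in macrophages. Its other probe set was near background on all arrays, at 3.50, 3.77 and 3.60.

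**Figure D4:**
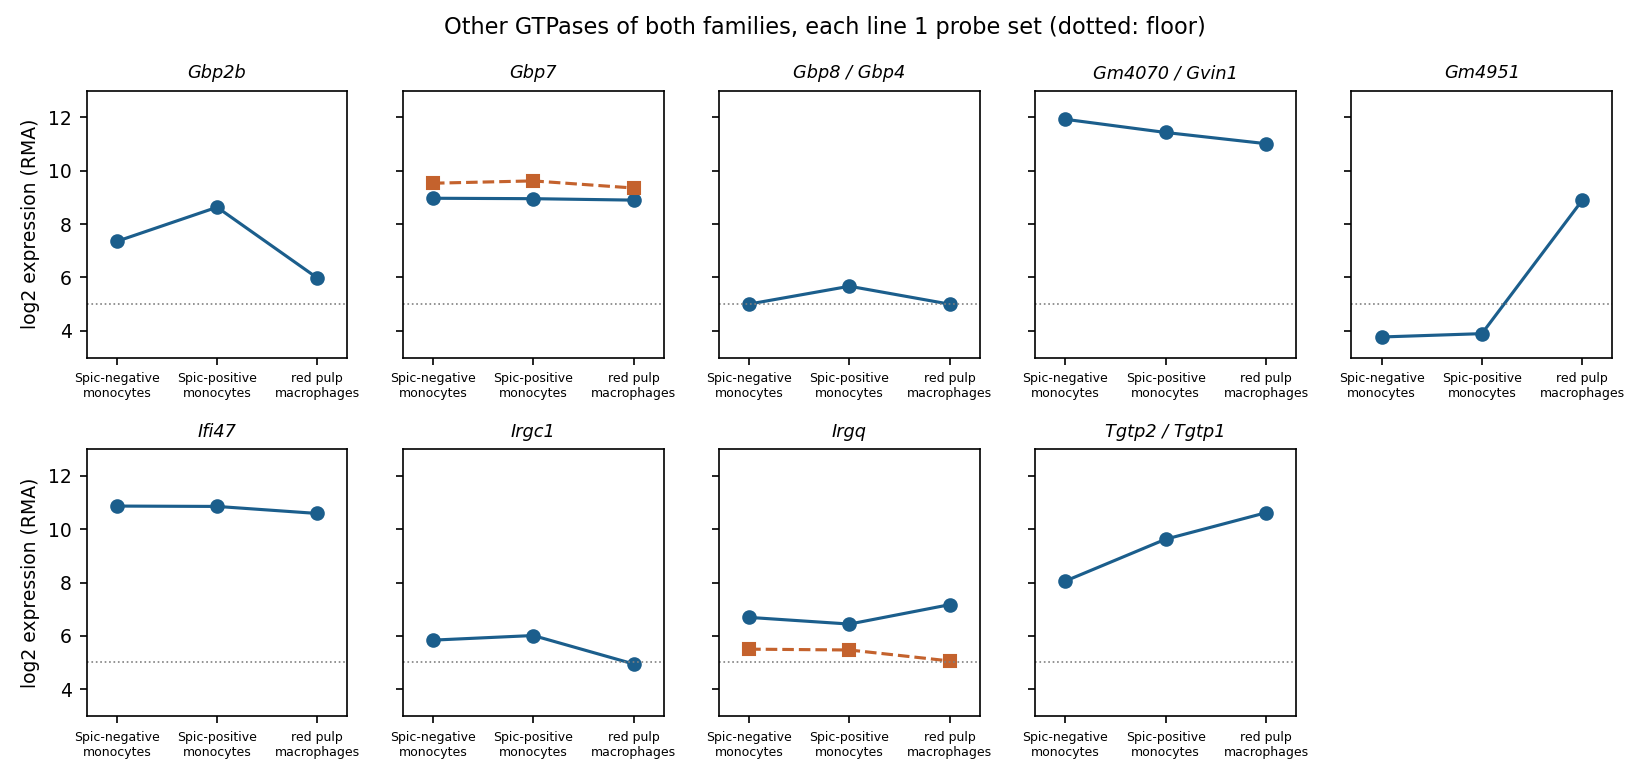
Log2 expression (vertical axis) of other GBP and IRG probe sets on the 3 arrays (horizontal axis), with 1 line per probe set, symbols joined by a slash where the annotation shares a probe set, and the floor dotted. Gbp2b peaks in Spic-positive monocytes, Gm4951 is high in macrophages only, the Tgtp probe set climbs, and Gbp7 and Ifi47 are level.

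The receptors and signalling genes upstream of these GTPases differed by less than 2-fold between the monocyte arrays in all 15 measured genes (median 0.05). In macrophages against Spic-negative monocytes 2 of the 15 were higher and 5 lower (median -0.63), beside 19.6% and 11.3% of all genes. The higher ones were the interferon regulatory factor genes Irf1, which activates GBP and IRG promoters (10.65, 10.96 and 11.75), and Irf8 (11.08, 11.06 and 12.14). The other Irf8 probe set above the floor differed by 0.56, less than 2-fold. The lower ones included Ifngr2, the signalling chain of the interferon gamma receptor, at 11.02, 10.87 and 7.22, although its other probe set above the floor differed by -0.67. Irf2, which binds the same element as Irf1, measured 9.997, 10.39 and 7.56, and Stat2 7.62, 8.16 and 6.60.

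Of the ligands, interferon gamma itself (Ifng), a product of NK and T cells, measured 3.08, 3.22 and 6.63, so it was above background on the macrophage array alone. That array also carried NK cell markers, of which 6 of 9 were at least 2-fold higher than in Spic-negative monocytes, beside 19.6% of all genes. Gzma measured 4.31, 4.004 and 9.24. Of the NK markers, 6 of 9 were near background on the Spic-negative array, 5 on the Spic-positive one and 0 on that of macrophages. In the same comparison with Spic-negative monocytes, 4 of 8 T cell markers were higher. Of 11 erythroid markers with a probe set, 9 passed the floor on some array, and all 9 were higher. Near background were 5, 5 and 0 of the 8 T cell markers, and 9, 7 and 2 of the 11 erythroid ones. Several markers thus passed the floor on the macrophage array alone, so these counts are in part set by the filter. The cytokine genes Il18 (10.25, 10.37 and 11.97) and Tnf (7.16, 7.79 and 9.11) were also highest in macrophages. The part of other cells in the GTPase levels was not tested.

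Of other genes typical of interferon gamma, 7 of 23 were at least 2-fold higher on the Spic-positive than on the Spic-negative array and none lower (median 0.37), beside 3.49% of all genes higher. Cd274, the checkpoint ligand PD-L1, measured 7.09, 10.26 and 9.62, and the chemokine genes Cxcl9 and Cxcl11 8.80, 11.96 and 10.40, and 5.80, 8.75 and 5.74. In macrophages against Spic-positive monocytes 2 of these 23 were higher and 9 lower, beside 22.0% and 11.6% of all genes. Among the lower ones was Ciita, the activator of MHC class II genes, at -4.52. Il18bp, a secreted inhibitor of interleukin 18, measured 5.96, 7.39 and 9.88, in the order seen for Gbp6.

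Genes typical of type I interferon are given for comparison. Between the monocyte arrays 1 of 29 passed 2-fold, Ifit2, higher by 1.47, and none was lower, a share near the 3.49% of all genes higher. The median was 0.32, close to the 0.37 of the interferon gamma genes. In macrophages against Spic-negative monocytes none of the 29 was 2-fold higher and 13 were lower, with a median of -0.68. Of all genes, 19.6% were higher and 11.3% lower there. In macrophages against Spic-positive monocytes, 13 of the 29 and 9 of the 23 interferon gamma genes were lower, beside 11.6% of all genes. The largest differences from Spic-negative monocytes were those of the antiviral genes Oas3 (-3.43), Oasl2 (-2.63) and Oas2 (-2.05). After centring or cyclic loess 1 of the 29 was higher and 13 were lower.

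Genes that act beside and after the GTPases were also read. Of 15 genes for the conjugation of ATG8 proteins and for other vacuole partners, which guide GBPs and IRGs to vacuoles, 3 were at least 2-fold higher and 1 lower in macrophages than in Spic-negative monocytes, a share of higher genes near the 19.6% of all genes. The higher ones were the cargo receptor gene Sqstm1 (9.81, 10.27 and 12.25), the ATG8 gene Gabarapl1 (8.81, 8.24 and 10.15) and the ubiquitin ligase gene Traf6 (6.96, 7.19 and 8.15). Over all probe sets above the floor, this difference ran from 0.59 to 2.44 for Sqstm1 and from -0.12 to 1.19 for Traf6. For Gabarapl1 it ran from 1.01 to 1.34. Of 11 cytosolic sensor and inflammasome genes, 1 was higher and 5 lower, beside 11.3% of all genes lower. The lower ones included the DNA sensor gene Aim2 (6.56, 7.62 and 5.27) and Nlrp3 (10.56, 10.63 and 8.97). Casp4, the caspase that senses lipopolysaccharide exposed by GBPs, was picked after its values were seen and measured 10.20, 9.96 and 10.38.

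**Figure D5:**
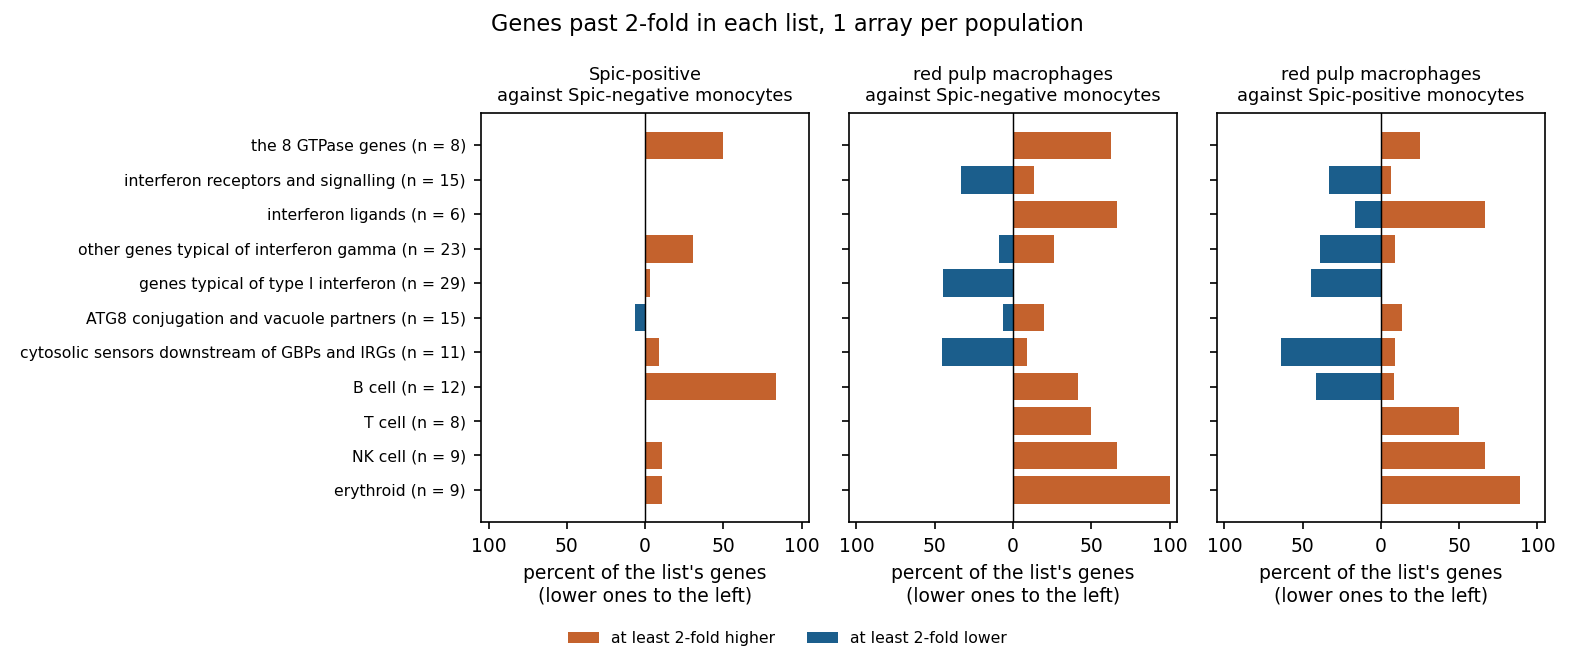
Share of each gene list (vertical axis, n genes above the floor) that was at least 2-fold higher (bars to the right) or lower (bars to the left), in percent, 1 panel per comparison of single arrays. The 8 GTPase genes, chosen with their values known, have bars to the right only. Type I interferon genes and sensors have bars mainly to the left in both macrophage comparisons.

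B cell markers differed between the monocyte arrays together with Gbp2, Gbp6, Gbp8 and Iigp1. On the Spic-positive array 10 of 12 such genes were higher by 2-fold or more and none lower, with a median of 1.61, beside 3.49% of all genes higher. Their summed level on the linear scale was 3514, 10777 and 24946, most of it the immunoglobulin gene Ighm, and 672, 2728 and 1935 over the other 11. Near background were 4, 0 and 1 of the 12. On the Spic-positive array, compared with the Spic-negative one, red pulp macrophage markers were at least 2-fold higher in 12 of 16 genes (median 2.09). Dendritic cell markers were so in 2 of 9, Ccr7 (5.85, 9.90 and 7.90) and Zbtb46 (4.11, 5.35 and 6.60). A further dendritic cell marker, Fscn1, differed by 0.65 on its brightest probe set, but by 0.47 to 5.88 over its 3 probe sets above the floor. In macrophages against Spic-positive monocytes 1 of the 12 B cell genes, Ighm (1.52), was higher and 5 were lower, with Cr2 at 5.60, 8.08 and 5.56. Of all genes, 22.0% were higher and 11.6% lower there. Gbp8 and Gbp6 differed by 2.52 and 1.18 in that comparison, Iigp1 by 0.99 and Gbp2 by -0.28. For the Gapdh controls, the 3′ probe set exceeded the 5′ one by 0.48, 2.25 and 1.61, a gap that grows as RNA or cRNA is shorter. For beta-actin the gap was 0.74, 0.57 and 1.13, so the controls did not order the monocyte arrays alike. The part of B cell RNA and of RNA length was not tested.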

How the data were processed

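The authors deposited 1 log2 value for each probe set and array, computed with RMA, per the submitters' processing notes. Of the RMA version, nothing is said in the labels. The log2 scale was read from the values, 1.82 to 14.50. RNA was labelled after 2 rounds of amplification, per the labels' protocols, which shortens cRNA. RMA normalizes the arrays to each other, so differences in total RNA per cell are not visible. The array medians still differed slightly, at 5.01, 5.08 and 4.96. Of 45101 probe sets 64 controls were left out. Symbols came from the platform annotation (34945 probe sets with 1 symbol, 932 with several, 9160 unnamed) and were updated by gene identifier. A gene took its probe set with the highest mean, and 12375 genes whose brightest array exceeded the floor were compared by log2 differences, counted at 2-fold. The members and lists were chosen with earlier results of these data known. Named are all 8 genes, the 2 closest in pattern to each, members of the family, receptor and ligand lists, and at most 3 of each other list per comparison, by size of the difference. Ifi202b and Casp4 fall outside this rule. Of the genes closest in pattern, those of Irgm2 and Igtp and 1 each of Gbp3 and Irgm1 differed little and are not printed. Promoters came from RefSeq (GRCm38.p6). Python 3.11.15, numpy 2.4.6, pandas 2.3.3, matplotlib 3.10.9, R 4.3.3 and limma 3.58.1 were used. The counting code was run on simulated differences with known shifts put in. That checks the code and says nothing of the spread between real arrays.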

Additional observations from a re-analysis of the deposited data

How the results depend on the processing

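With 1 array per population no replicate could be left out. No paired analysis was possible because each group has 1 array. Under 9 alternatives and 1 more chosen after seeing the data (without Gbp6), the 8 genes gave 237 single differences, of which 230 kept their direction and their side of 2-fold, 3 fell below 2-fold, 3 rose above it, 1 turned sign below 2-fold and 0 reversed. Many of the 237 could not change. Dropping or raising the floor and leaving out Gbp6 do not alter the difference of a remaining gene. Averaging probe sets or taking their median alters only genes with more than 1. The 230 are therefore no measure of robustness. The 4 genes higher between the monocyte arrays were Gbp2, Gbp6, Gbp8 and Iigp1, whose differences ranged from 1.15 to 1.78, 1.76 to 2.10, 3.66 to 4.31 and 2.64 to 3.27. The median of the 8 in that comparison, 1.01, was 0.89 with the mean of a gene's probe sets and 0.89 with their median, 0.94 with arrays centred on their medians, 0.76 without probe sets ending in _x_at or _s_at, and 0.37 without Gbp6. The count of 2 higher in macrophages than in Spic-positive monocytes was 1 after quantile normalization again, where Gbp6 came to 0.93, and 1 without Gbp6, but 3 with each gene's probe sets averaged or their median taken or after centring, where Iigp1 came to 1.34, 1.34 and 1.11. Against Spic-negative monocytes, Irgm2 was 0.98 after quantile normalization and Gbp2 was 0.99 without _x_at and _s_at probe sets. Centring moved the share of higher genes among all that differed between the monocyte arrays from 53.3% to 42.4%, and the median of all genes from -0.06 to -0.13; cyclic loess moved that median to 0.04. Between macrophages and Spic-positive monocytes the median of all genes was 0.10, and 0.23 after centring and -0.03 after quantile normalization. The cause of these changes was not tested.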
